A study of Mus musculus with 6 samples.

Results

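Metallothioneins are small cysteine-rich proteins that bind zinc, copper and cadmium, and the liver is among the tissues that make most of them. Their genes are switched on by the zinc-sensing transcription factor MTF1, which binds short metal response elements (MREs) in their promoters. Transporters of the SLC30 family carry zinc out of the cytosol, and those of the SLC39 family carry it in. Zinc, glucocorticoids and interleukin-6 are all known inducers of metallothioneins in mouse liver. The genes described here are 6 of this system: the metallothioneins Mt1 and Mt2, the sensor Mtf1, the plasma membrane zinc exporter Slc30a1, the manganese exporter Slc30a10 and Slc39a14, an importer of zinc, manganese and iron that interleukin-6 induces in mouse liver. They were taken by gene name from the expression tables of all livers, and all 6 were found among 14002 listed genes. They were chosen by their measured signal in these same livers, with the difference between the groups already known, so their values in this contrast are a description with no test.

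Liver RNA came from C57BL/6 mice given a 60% high-fat diet for 8 weeks. In 3 of them the let7b/c2 microRNA genes were knocked out in hepatocytes (LKO), and 3 others were wild type. The labels give the age as 8 weeks in both groups, without saying whether this is the age at the start of the diet. The sources used here do not name the driver of the knockout, the sex of the mice or whether the wild type mice carried floxed alleles. Each library holds RNA of the whole liver, so in all that follows a change in the share of a cell type and a change in RNA per cell cannot be told apart. Nothing in the labels says which mice shared a litter or a day.

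The knockout is aimed at microRNA genes whose products share 1 seed, the bases that pair with target messengers. Mature let-7c-5p is also made from another gene, Mirlet7c-1. The RefSeq sequences of the main arms (GRCm38.p6, chromosome 15, plus strand) follow, with the seed, bases 2 to 8, in capitals.
let-7b-5p: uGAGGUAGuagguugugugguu
let-7c-5p: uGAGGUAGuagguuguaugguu
These microRNAs themselves were not measured, since the library preparation selected polyadenylated RNA. The longest 3′ untranslated region annotated in GENCODE M21 was searched for the 7-base matches CTACCTC and TACCTCA. Of 10684 tested genes with such a region, 17.0% held at least 1 match. Among the 6 genes, Slc30a1 held 1 match of the full 8 bases CTACCTCA and Mtf1 held 1 match of 7 bases, while Mt1, Mt2, Slc30a10 and Slc39a14 held none. Both matches are shown with the bases before them, with the match in capitals.
Slc30a1, chr1:191913114-191913135, plus strand: ttccaaagctgttcCTACCTCA
Mtf1, chr4:124845727-124845748, plus strand: agcttgcagtcagttTACCTCA
A match is a description of the letters and was not tested as a site.

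The promoters of the metallothioneins are shown because MREs are their known control element. The windows are RefSeq's (GRCm38.p6), from 250 bases before the annotated start to 50 after it, on the plus strand. Capitals mark the MRE core, searched on both strands as TGCACNC and TGCGCNC.
Mt1, chr8:94178839-94179138: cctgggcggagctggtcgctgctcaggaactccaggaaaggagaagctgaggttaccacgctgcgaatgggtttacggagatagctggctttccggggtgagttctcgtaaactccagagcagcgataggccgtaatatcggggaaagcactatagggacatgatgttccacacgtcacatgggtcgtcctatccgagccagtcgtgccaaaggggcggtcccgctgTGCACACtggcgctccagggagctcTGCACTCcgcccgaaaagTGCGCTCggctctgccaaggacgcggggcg
Mt2, chr8:94172368-94172667: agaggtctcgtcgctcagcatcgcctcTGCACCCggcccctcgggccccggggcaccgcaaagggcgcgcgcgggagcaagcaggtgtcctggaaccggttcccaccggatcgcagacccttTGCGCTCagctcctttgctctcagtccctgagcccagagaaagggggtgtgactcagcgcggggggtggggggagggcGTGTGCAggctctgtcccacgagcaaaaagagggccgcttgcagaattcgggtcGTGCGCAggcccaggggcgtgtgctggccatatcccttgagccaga
Slc30a1, chr1:191906531-191906830: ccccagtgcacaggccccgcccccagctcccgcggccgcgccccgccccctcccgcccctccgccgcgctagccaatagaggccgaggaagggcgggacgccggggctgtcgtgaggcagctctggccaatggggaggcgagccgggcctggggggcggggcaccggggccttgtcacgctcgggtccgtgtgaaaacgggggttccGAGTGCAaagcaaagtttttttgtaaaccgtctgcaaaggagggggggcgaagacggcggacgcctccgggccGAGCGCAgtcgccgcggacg

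The Mt1 window held 3 MRE cores and the Mt2 window 4. The Slc30a1 window, from the other known MTF1 target among the 6, held 2. Counted from the RefSeq start as base 1, the cores of Mt1 begin at bases -23, 3 and 21, and those of Mt2 at bases -223, -128, -50 and 5. Of 32851 such windows in the table, 25.7% held 1 core or more, 7.11% held 2 or more, 1.97% held 3 or more and 0.517% held 4 or more. The Slc30a10 window held 3, of which 2 overlap each other on opposite strands, and the Mtf1 window held none. Slc39a14 was not searched. The Mt2 and Slc30a1 windows each held 1 match to TGACNNNGC, a core of the antioxidant response element that 12.4% of windows hold. No window searched held the palindromic consensus of the glucocorticoid response element, present in 0.00913% of windows, or the direct repeat consensus of the PPAR response element, present in 0.0396%. GENCODE M21 also starts transcripts 122 and 152 bases downstream of the RefSeq start of Mt1, and 46 and 242 bases downstream of that of Mt2, so the windows lie upstream of some annotated starts. The bases directly before those later starts of Mt1, and before the start of Mt2 at 242 bases, lie past the end of their windows. They were not searched. The same holds for a Slc30a1 transcript that starts 475 bases downstream of the RefSeq start. The counts, positions and missing matches therefore describe these windows only, and not the whole promoters.

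The deposited expression value is called the signal here. Its unit is not named, and it behaves as an estimated read count times 1 factor per library. Estimated counts ranged from 8636681 to 10764825 per LKO library and from 8549483 to 10398390 per wild type library. The 10 most abundant genes took 24.2% of the signal of LKO replicate 2, and 18.7% to 21.0% of that of any other library. Values without LKO replicate 2 are therefore given for some of the results, but medians of gene lists without it were not taken. The 13 Kupffer cell and macrophage markers were all higher on average in LKO livers (median log2 fold change 0.83), and 5 rose at an adjusted p under 0.05 in limma, where 1.82% of all tested genes did. Of these, Clec4f, Csf1r and Vsig4 kept the call only without LKO replicate 1 or wild type replicate 3 among the fits with a library left out, and Timd4 lost it without LKO replicate 3, wild type replicate 2 or wild type replicate 3 (adjusted p in limma up to 0.101 for these 4). The markers' summed signal ran from 218 to 326 in LKO livers and from 145 to 163 in wild type livers, with none at 0 in all libraries. Hepatocyte markers had a median log2 fold change of 0.29 (11 genes), sinusoidal endothelial markers 0.35 (10 genes), stellate cell markers 0.16 (10 genes) and mitochondrially encoded transcripts -0.31 (13 genes). Neutrophil and lymphocyte markers were close to absent, with summed signals of at most 1.67 and 2.11 in LKO livers and of at most 0.773 and 1.33 in wild type livers. The part of any of these in the values below was not tested.

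Mt1 (chromosome 8, 94179082 to 94180327, GRCm38, 3 exons) had a signal of 249.8, 832 and 394 in LKO replicates 1, 2 and 3, against 55.7, 153 and 48.1 in wild type replicates 1, 2 and 3. Every LKO liver lay above every wild type liver, with LKO replicate 2 highest and wild type replicate 2 the highest of its group. The mean was 492 ± 303 in LKO livers and 85.6 ± 58.5 in wild type livers (SD, n = 3 each), a log2 fold change of 2.53 (SE 0.47) on the log2(signal + 1) scale. The values rested on 428 to 5586 estimated reads per liver.

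Mt2 (chromosome 8, 94172664 to 94173568, 3 exons) lies 5.51 kb upstream of Mt1 on the same strand. Its signal was 188, 809 and 356 in LKO replicates 1, 2 and 3, against 33.1, 115 and 33.7 in wild type replicates 1, 2 and 3. The order of the livers was nearly that of Mt1, and the groups again did not overlap. The mean was 451 ± 321 in LKO livers and 60.5 ± 47.0 in wild type livers (SD, n = 3 each), a log2 fold change of 2.88 (SE 0.55).

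In both genes the gap between the groups was smaller than the spread within them. LKO replicate 1 exceeded wild type replicate 2 by 1.63-fold for Mt1 and by 1.64-fold for Mt2. Within the groups the highest liver exceeded the lowest by 3.33-fold (LKO) and 3.18-fold (wild type) for Mt1, and by 4.30-fold (LKO) and 3.47-fold (wild type) for Mt2. The SD within groups on the log2 scale was 0.89 for Mt1 and 1.03 for Mt2, and 0.779% and 0.501% of the 11168 tested genes had a larger one. The metallothioneins were among the most variable tested transcripts between mice of the same genotype. Without LKO replicate 2 the log2 fold change was 2.06 for Mt1 and 2.33 for Mt2, and without wild type replicate 2 it was 3.04 and 3.46.

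The pair together made up 384, 1276 and 625 ppm of the listed signal in LKO replicates 1, 2 and 3, against 79.8, 225 and 71.2 in wild type replicates 1, 2 and 3. Mt1 was the 570th, 190th and 368th most abundant of all listed genes by signal in LKO replicates 1, 2 and 3, and the 2313th, 964th and 2654th in wild type replicates 1, 2 and 3. The summed signal averaged 943 ± 624 in LKO livers and 146 ± 105 in wild type livers (SD, n = 3 each), a ratio of means of 6.45. It was 4.06 without LKO replicate 2 and 11.1 without wild type replicate 2, and between 5.29 and 8.18 without any 1 of the other livers.

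LKO livers also had more Mt2 relative to Mt1. The ratio of the Mt2 to the Mt1 signal within a liver, which no library scaling can alter, was 0.753, 0.973 and 0.905 in LKO replicates 1, 2 and 3, against 0.593, 0.750 and 0.701 in wild type replicates 1, 2 and 3. The groups met without overlapping, with LKO replicate 1 just above wild type replicate 2. In each group the ratio was highest in replicate 2, the liver with the most metallothionein signal. Estimated counts of both genes were whole numbers of reads, within 0.005 of a read, in all 6 livers.

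**Figure D1:**
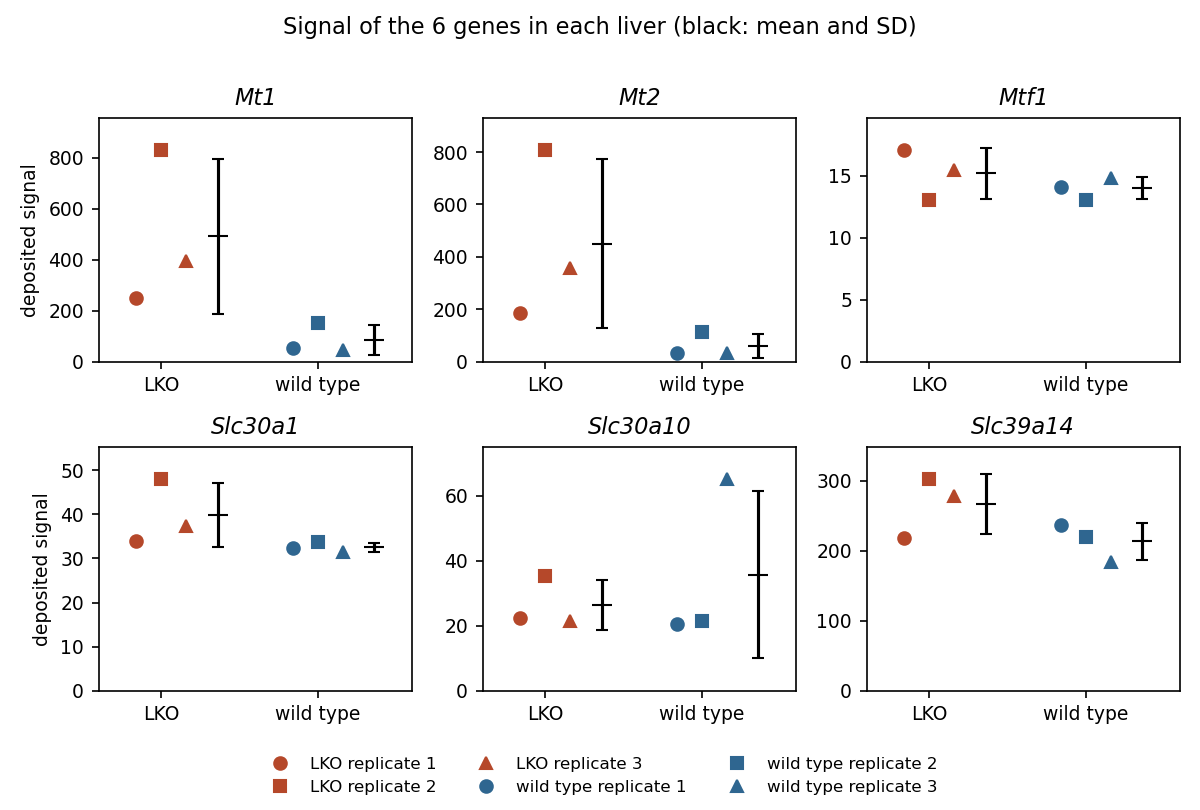
Deposited signal (vertical axis, linear, 1 scale per gene) of each of the 6 genes in 3 LKO and 3 wild type livers, with 1 symbol per replicate number and the mean and SD in black. Mt1 and Mt2 lie above the wild type range in every LKO liver, Slc30a1 does so narrowly, and the other 3 genes overlap; wild type replicate 3 holds the highest Slc30a10 value, 65.2.

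Mtf1 (chromosome 4, 124802104 to 124849800), which encodes the zinc-sensing activator of metallothionein genes, had overlapping levels in the groups. Its signal was 17.1, 13.0 and 15.5 in LKO replicates 1, 2 and 3, against 14.1, 13.1 and 14.9 in wild type replicates 1, 2 and 3. The groups overlapped. The lowest Mtf1 values, 13.02 in LKO replicate 2 and 13.07 in wild type replicate 2, were nearly equal. LKO replicate 2 was the liver with the most Mt1 and Mt2. The mean was 15.2 ± 2.06 in LKO livers and 14.002 ± 0.895 in wild type livers (SD, n = 3 each), a log2 fold change of 0.11 (SE 0.15), or 0.21 without LKO replicate 2. These are transcript levels, and the activity of the protein was not measured.

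Slc30a1 (chromosome 1, 191906767 to 191913247), the zinc exporter that shares MTF1 control with the metallothioneins, was slightly higher in LKO livers. Its signal was 34.0, 48.1 and 37.4 in LKO replicates 1, 2 and 3, against 32.3, 33.7 and 31.5 in wild type replicates 1, 2 and 3. The groups did not overlap, but LKO replicate 1 exceeded wild type replicate 2 by a small margin. The mean was 39.8 ± 7.33 in LKO livers and 32.5 ± 1.11 in wild type livers (SD, n = 3 each), a log2 fold change of 0.27 (SE 0.14), or 0.13 without LKO replicate 2. Slc30a1 is also the gene of the 6 with a full 8-base let-7 match, shown above.

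Slc39a14 (chromosome 14, 70303469 to 70351425) was the most abundant of the 3 transporters. Its signal was 219, 303 and 278 in LKO replicates 1, 2 and 3, against 236, 219.8 and 184 in wild type replicates 1, 2 and 3. LKO replicate 1 lay within the wild type range, and the other 2 LKO livers lay above it. The mean was 267 ± 43.2 in LKO livers and 213 ± 26.8 in wild type livers (SD, n = 3 each), a log2 fold change of 0.31 (SE 0.15), or 0.22 without LKO replicate 2.

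Slc30a10 (chromosome 1, 185454848 to 185468762), which exports manganese from hepatocytes, varied more within wild type livers than between groups. Its signal was 22.5, 35.4 and 21.4 in LKO replicates 1, 2 and 3, against 20.5, 21.4 and 65.2 in wild type replicates 1, 2 and 3. The groups overlapped, with 1 wild type liver far above the other 5 livers. The log2 fold change was -0.25 (SE 0.39), and it was 0.28 without wild type replicate 3, so its sign rests on that liver. The SD within groups on the log2 scale was 0.71, which 1.71% of tested genes exceeded.

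Of the 6 genes, 3 lay higher in every LKO liver than in any wild type liver, where 12.2% of all tested genes did so, and none lay lower, where 11.9% did. At an adjusted p under 0.05 in limma, 2 of the 6 would be called raised and none lowered, where 1.82% and 1.69% of all tested genes were and 3.51% in either direction. Since the genes were chosen with this contrast known, nothing is read from either count. The median log2 fold change of the 6 was 0.29, against 0.00 over all tested genes.

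Levels can be set against each other only per transcript length. Per kilobase of the principal transcript in GENCODE M21, the mean signal in LKO livers was 896 ± 552 for Mt1, 883 ± 629 for Mt2, 54.1 ± 8.78 for Slc39a14, 7.60 ± 1.40 for Slc30a1, 4.53 ± 1.33 for Slc30a10 and 1.99 ± 0.270 for Mtf1 (SD, n = 3). In wild type livers it was 156 ± 107 for Mt1, 118 ± 92.0 for Mt2, 43.3 ± 5.43 for Slc39a14, 6.20 ± 0.212 for Slc30a1, 6.12 ± 4.38 for Slc30a10 and 1.83 ± 0.117 for Mtf1. The order of the means was the same in both groups. The ranges of Mt1 and Mt2 over livers overlapped in each group, and those of Slc30a1 and Slc30a10 did in wild type livers. Within a liver, Mt2 per kilobase was 0.809, 1.05 and 0.972 of Mt1 in LKO replicates 1, 2 and 3, against 0.638, 0.806 and 0.753 in wild type replicates 1, 2 and 3. It was thus below Mt1 in every wild type liver and in 2 of 3 LKO livers.

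The other zinc transporters were examined for a difference across both families. Of 18 listed, 16 passed the filter on low signal, and 1 rose, none fell and 15 did not pass the test in limma. Of all tested genes 1.82% rose and 1.69% fell. Their median log2 fold change was 0.02, against 0.00 over all tested genes. At an unadjusted p under 0.05, 1 was higher and 3 were lower in LKO livers, where 9.58% and 8.86% of all tested genes were. Slc39a4, a plasma membrane zinc importer best known from the intestine, was the gene that rose. Its signal was 74.5, 85.4 and 77.6 in LKO replicates 1, 2 and 3, against 19.5, 31.3 and 24.2 in wild type replicates 1, 2 and 3. The groups were far apart, and the spread within each was small. The mean was 79.2 ± 5.63 in LKO livers and 25.0 ± 5.92 in wild type livers (SD, n = 3 each), a log2 fold change of 1.65 (SE 0.16), with an adjusted p of 0.0011 in limma. The call was kept with each library left out in turn, at log2 fold changes of 1.49 to 1.82 and a highest adjusted p in limma of 0.00775. Slc39a4 lies on chromosome 15 (76612383 to 76617384), 9.09 Mb from let-7b, and its 3′ untranslated region held no let-7 match.

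The 4 other transporters with the highest signal did not pass the test. The Golgi and endoplasmic reticulum importer Slc39a7 averaged 98.7 ± 13.0 in LKO livers and 96.6 ± 7.56 in wild type livers (SD, n = 3 each), a log2 fold change of 0.03 (SE 0.12). Slc39a1, a plasma membrane importer, had -0.17 (SE 0.11), Slc30a9, a mitochondrial zinc transporter, had 0.21 (SE 0.12) and Slc39a9 had -0.21 (SE 0.12). The importer Slc39a5, named after its values were seen, was at the low end, with a signal of 0, 0.149 and 1.00 in LKO replicates 1, 2 and 3, against 1.43, 2.52 and 3.20 in wild type replicates 1, 2 and 3. It lay lower in every LKO liver (log2 fold change -1.32, SE 0.34), with an adjusted p in limma of 0.0699. Slc30a2 and Slc39a2 were below the filter in both groups.

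**Figure D2:**
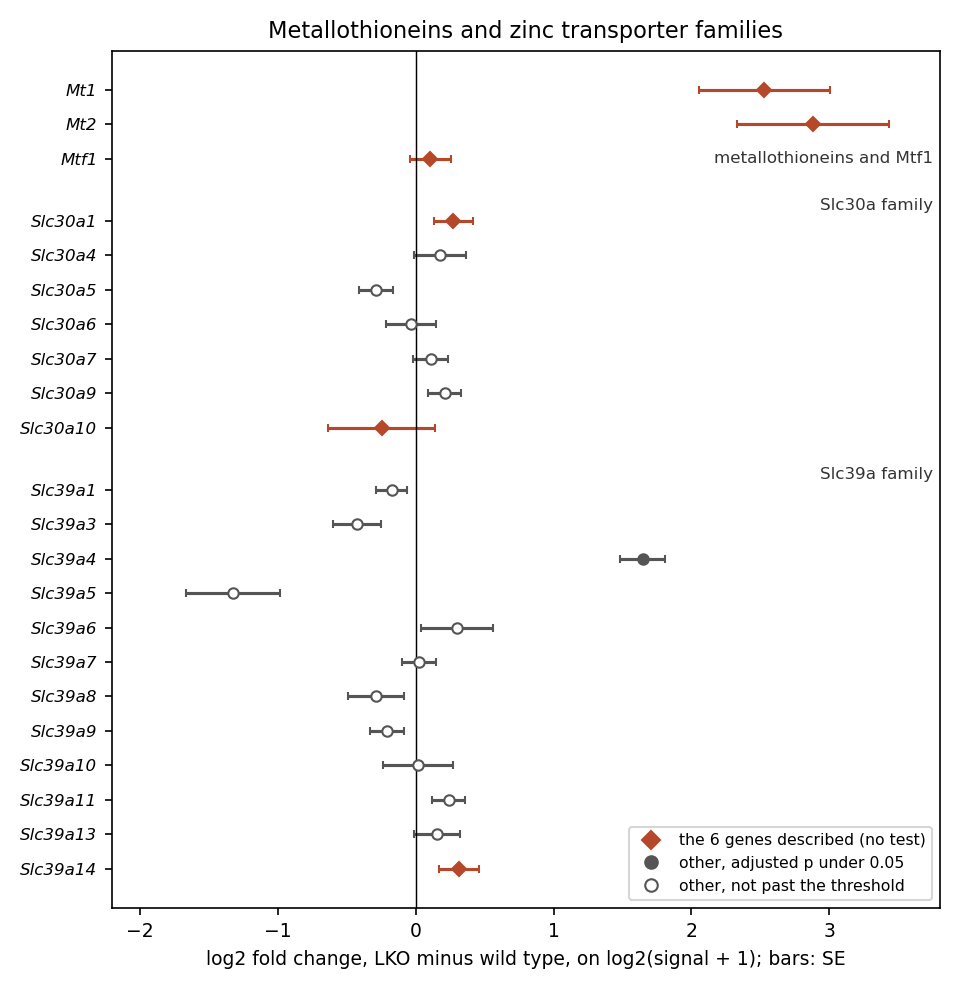
Log2 fold change, LKO minus wild type (horizontal axis), with SE bars, for the 6 genes described (diamonds) and the 16 other tested zinc transporters (circles; filled where the adjusted p was under 0.05). Mt1 and Mt2 stand at 2.53 and 2.88 and Slc39a4 at 1.65, while the other 15 transporters lie between -1.32 and 0.30.

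Among 7 other genes linked to MTF1, 0 were called in limma, where 3.51% of all tested genes were. At an unadjusted p under 0.05, 0 were higher and 2 lower in LKO livers, where 9.58% and 8.86% of all tested genes were. Their median log2 fold change was -0.16. The list was not split by whether MTF1 raises or lowers a gene, so these values are no measure of its activity. Hamp, which encodes the iron hormone hepcidin and whose human counterpart has MREs in its promoter, had a signal of 458, 53.7 and 120.2 in LKO replicates 1, 2 and 3, against 402, 523 and 529 in wild type replicates 1, 2 and 3. The groups overlapped, and the liver with the most metallothionein signal had the least Hamp (log2 fold change -1.73, SE 0.59, adjusted p in limma 0.15). Without LKO replicate 1, whose value lay within the wild type range, it was -2.56 and would be called (adjusted p in limma 0.0016), while without LKO replicate 2 it was -1.03 (adjusted p in limma 0.342). Hamp also stands on the iron and acute phase lists below. Gclc, the catalytic subunit of the enzyme that limits glutathione synthesis, averaged 143 ± 26.9 in LKO livers and 268 ± 140 in wild type livers (SD, n = 3 each). It lay lower in every LKO liver than in any wild type liver, with an adjusted p in limma of 0.174. The margin was small, 174 in LKO replicate 2 against 179 in wild type replicate 1, while wild type replicate 3 stood at 430. The log2 fold change of Gclc was -0.80, and -1.04 to -0.41 with a library left out.

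Copper is the other essential metal that metallothioneins bind. Of 16 tested copper handling genes 0 were called in limma, where 3.51% of all tested genes were. At an unadjusted p under 0.05, 0 were higher and 3 lower in LKO livers, where 9.58% and 8.86% of all tested genes were. In 1 of 16 every LKO liver lay above every wild type liver and in 4 below, where 12.2% and 11.9% of all tested genes did so. On the log2 scale their median difference was -0.17, with 3 of 16 positive. Cp, the copper-carrying plasma ferroxidase, had 0.29 (SE 0.16, adjusted p in limma 0.374). Sod1, which needs both copper and zinc, had -0.37 (SE 0.14, adjusted p in limma 0.184). Of 18 tested manganese and iron handling genes 0 were called in limma, beside the same share of all tested genes. At an unadjusted p under 0.05, 0 of them were higher and 3 lower, again beside the same shares, and their median was -0.04. Their most abundant members were Trf, the plasma iron carrier, at 0.57 (SE 0.34), and the ferritin light chain gene Ftl1, at -0.02 (SE 0.19). The signal of Trf was 18193, 39534 and 22437 in LKO replicates 1, 2 and 3. LKO replicate 1 lay within the wild type range of 15107 to 19620. The log2 fold change of Trf ran from 0.24 to 0.80 with a library left out.

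Of 27 tested zinc-dependent liver enzymes, 2 fell, none rose and 25 did not pass, where 1.69% of all tested genes fell and 1.82% rose. At an unadjusted p under 0.05, 8 were lower and 1 higher in LKO livers, where 8.86% and 9.58% of all tested genes were. In 8 of 27 every LKO liver lay below every wild type liver and in 0 above, where 11.9% and 12.2% of all tested genes did so. Both counts of 8 include Car8, a carbonic anhydrase relative without the enzyme activity, which the list holds by family name. Their median on the log2 scale was -0.16, with 6 of 27 positive. Mme, the membrane peptidase neprilysin, had a signal of 20.3, 13.4 and 22.2 in LKO replicates 1, 2 and 3, against 50.4, 53.2 and 76.8 in wild type replicates 1, 2 and 3. It fell in LKO livers without overlap, at a log2 fold change of -1.64 (SE 0.21), with an adjusted p of 0.0043 in limma. Dpys, a pyrimidine-degrading enzyme, averaged 208 ± 13.1 in LKO livers and 343 ± 39.3 in wild type livers (SD, n = 3 each), a log2 fold change of -0.71 (SE 0.12), with an adjusted p of 0.0125 in limma. The call of Dpys was lost without LKO replicate 3 (adjusted p in limma 0.0543) and without wild type replicate 2 (0.0573).

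No tested gene next to the pair on chromosome 8 passed the test. Of 11 tested genes on a list of the surroundings 0 were called in limma, where 3.51% of all tested genes were. With 11 genes, 0 calls lie near that share. At an unadjusted p under 0.05, 0 were higher and 0 lower, where 9.58% and 8.86% of all tested genes were. The nearest tested gene upstream, Bbs2 at 73.7 kb, had a log2 fold change of 0.09 (SE 0.25), and the next, Ogfod1 at 104.7 kb, had 0.17 (SE 0.17). Downstream, Nup93 at 34.2 kb had 0.33 (SE 0.20) and the predicted gene Gm15889 at 197.5 kb had 0.30 (SE 0.29). The other 2 metallothionein genes, Mt3 and Mt4, were not found among the 14002 listed genes, so they have no values here.

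**Figure D3:**
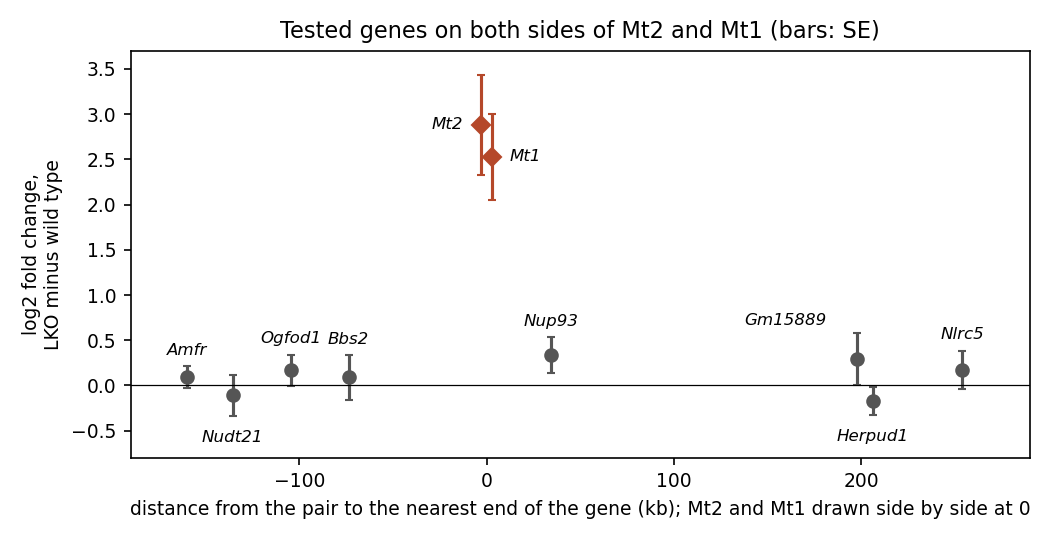
Log2 fold change, LKO minus wild type, with SE bars (vertical axis) of the tested genes on both sides of Mt2 and Mt1, against their distance from the pair in kb (horizontal axis). Mt2 and Mt1 lie at 2.88 and 2.53, and the 8 neighbours between -0.17 and 0.33.

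Known inducers of metallothioneins were looked at through lists of genes linked to them. The interleukin-6 list also holds the receptor and signalling genes Il6ra, Il6st, Il1r1 and Stat3. Each of these was higher at an unadjusted p under 0.05 in limma, without overlap of the groups, and is in the counts that follow. Lcn2 and Cebpd stand on both the interleukin-6 and the glucocorticoid list. Of 27 tested interleukin-6 and acute phase genes 1 rose and none fell in limma, where 1.82% and 1.69% of all tested genes did. At an unadjusted p under 0.05, 12 were higher and 1 lower in LKO livers, where 9.58% and 8.86% of all tested genes were. In 9 of 27 every LKO liver lay above every wild type liver, where 12.2% of all tested genes did so. In all, 25 of 27 had a positive log2 fold change, with a median of 0.56 against 0.00 over all tested genes. The summed signal of the list overlapped between the groups, from 23767 to 42155 in LKO livers and from 21593 to 26000 in wild type livers. How far the median rests on LKO replicate 2 was not tested. The gene that rose was Orm1, an acute phase glycoprotein gene. Its signal was 509.8, 1463 and 978 in LKO replicates 1, 2 and 3, against 249, 364 and 348 in wild type replicates 1, 2 and 3. LKO replicate 2 was highest here as well (log2 fold change 1.51, SE 0.32, adjusted p in limma 0.0357), and of the 6 fits with a library left out only that without LKO replicate 1 kept the call, the others having adjusted p-values of 0.0699 to 0.12 in limma. Of 20 tested glucocorticoid-responsive genes 0 were called in limma, where 3.51% of all tested genes were. At an unadjusted p under 0.05, 7 were higher and 1 lower in LKO livers, where 9.58% and 8.86% of all tested genes were. In 7 every LKO liver lay above every wild type liver and in 1 below, where 12.2% and 11.9% of all tested genes did so. In all, 14 of 20 had a positive log2 fold change, with a median of 0.21. Tat, a liver enzyme gene induced by glucocorticoids, had 0.49 (SE 0.18, adjusted p in limma 0.189), and Pck1, the gluconeogenic enzyme gene, had 0.29 (SE 0.19). Of 17 tested oxidative stress genes 1 rose and 1 fell, where 1.82% and 1.69% of all tested genes did. At an unadjusted p under 0.05, 3 were higher and 4 lower in LKO livers, against 9.58% and 8.86% of all tested genes, and the median was -0.16. In 3 of 17 every LKO liver lay above every wild type liver and in 6 below, where 12.2% and 11.9% of all tested genes did so. Osgin1, an oxidative stress response gene, had 2.0 (SE 0.36, adjusted p in limma 0.0174), and the quinone reductase gene Nqo1 had -1.27 (SE 0.23, adjusted p in limma 0.0181). The call of Osgin1 was lost without LKO replicate 2, LKO replicate 3 or wild type replicate 2 (adjusted p in limma up to 0.0757), and that of Nqo1 without LKO replicate 2, wild type replicate 2 or wild type replicate 3 (up to 0.0845). The part of these lists in the metallothionein values was not tested, and metals were not measured.

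The genes whose pattern over the 6 livers was nearest to that of the metallothioneins were sought among all tested genes. Nearness was the root mean square difference between log2(signal + 1) profiles, each centred on its own mean, so a difference between the groups weighs on it as much as the spread within them. Mt1 and Mt2 differed from each other by 0.23 log2 units, and each was the nearest of all tested genes to the other. Nearest to their mean was Fabp5, which encodes a fatty acid binding protein, at 0.25. Its signal was 33.0, 94.4 and 44.6 in LKO replicates 1, 2 and 3, against 4.56, 13.1 and 6.19 in wild type replicates 1, 2 and 3, with replicate 2 highest in each group. Also near were Enho at 0.51, which encodes the peptide adropin, the growth factor receptor gene Fgfr1 at 0.52, the fatty acid elongase gene Elovl6 at 0.58 and the chemokine gene Cxcl14 at 0.63. In Cxcl14 wild type replicate 2 did not stand above the other wild type livers. Peaks shared with the metallothioneins follow from the search by pattern and are no separate result. The genes nearest to Slc30a1 were F5, Rapgef6 and Diaph1, at 0.03, 0.03 and 0.05, and their own log2 fold changes of 0.22, 0.25 and 0.19 did not pass the test.

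**Figure D4:**
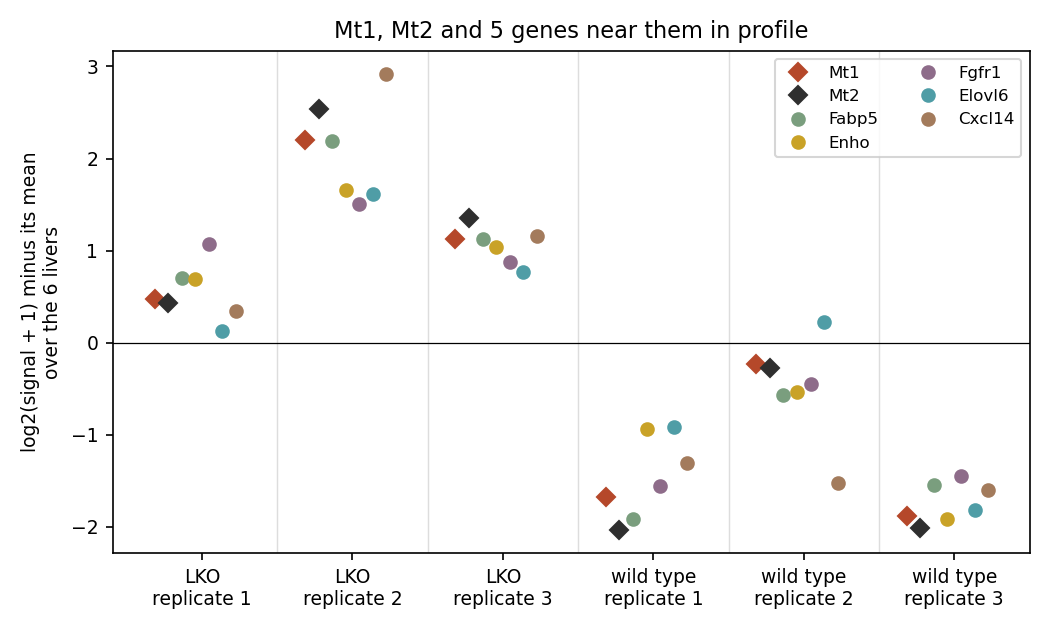
Log2(signal + 1) minus its mean over the 6 livers (vertical axis) for Mt1, Mt2 and 5 genes near them in profile, in each LKO and wild type liver. Each gene shown is highest in LKO replicate 2, and in wild type replicate 2 all but Cxcl14 are above the other wild type livers. The 5 genes were picked for nearness to this pattern, so their shared peaks are no separate result.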

How the data were processed

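Each mouse has 1 deposited table, giving an expression signal for 14002 genes whose unit the authors do not name in the file headers. Per the labels' protocols the mRNA libraries were stranded. STAR 2.5.1, RSEM 1.2.22, edgeR and build mm10 are among the tools and builds in the submitters' processing notes, which give them no role or order. Divided by 1 step per library, positive values gave read estimates with 2 decimals, and between 82.0% and 83.1% of them were whole reads within 0.005 of a read, so no count model was run.

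Genes with a mean signal of at least 1 were kept (11168), limma 3.58.1 (R 4.3.3) was run on log2(signal + 1) with a mean-variance trend and no block, and two-sided p-values were Benjamini-Hochberg adjusted over all of them. An adjusted p under 0.05 is a call. The scripts were tested on simulated data. With 3 livers a group, each p-value rests on the spread between these samples, moderated towards its trend over all tested genes. Coordinates and lengths are from GENCODE M21 (GRCm38, the mm10 assembly).

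The 6 genes and all gene lists were chosen with earlier results of these data known. Lists held none of the 6 genes. Genes named were those 6, called zinc transporters and the 4 most abundant ones, of each other list up to 4 called genes with the smallest p or otherwise the 2 most abundant, the 2 tested genes on each side of the pair, and the nearest profiles, of which 1 is not reported here. Alternatives were other pseudocounts, filters and scalings, no trend, a replicate block, and leaving out each library.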

Additional observations from a re-analysis of the deposited data

How the results depend on the processing

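Mt1 and Mt2 kept their direction under all 14 alternatives, between 2.06 and 3.04 for Mt1 and between 2.33 and 3.46 for Mt2 on the log2 scale, which the lack of overlap between their groups fixes where a library is left out. Slc30a10 ran from -0.53 to 0.28 with a library left out. Library size as the scaling moved the median of all genes by -0.06 on the log2 scale, and RLE by 0.00. Slc39a4 and Mme kept their call under all 14 alternatives. Over all genes 203 were raised and 189 lowered. Leaving out 1 library gave 76 to 277 raised and 79 to 263 lowered, and no trend gave 98 and 97. The raised count was 120 without wild type replicate 1, 88 without wild type replicate 2, 114 without wild type replicate 3, 92 without LKO replicate 2 and 76 without LKO replicate 3. The lowered count was 79 without wild type replicate 2, 105 without wild type replicate 3, 107 without LKO replicate 2 and 97 without LKO replicate 3. Of the zinc-dependent enzymes, 1 to 3 were called with a library left out and 1 with no trend. Without LKO replicate 1, Hamp was called, on both the manganese and iron list and the MTF1-linked list, and the range over libraries left out was 0 to 1 for both lists; the cause was not tested. Other zinc transporters had 1 call with any library left out, and the copper and neighbour lists had 0.

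The labels do not say that replicate numbers mark shared animals or days. Over all tested genes, deviations from the group means of same-numbered livers correlated at 0.05, 0.03 and 0.05. These lie below the 0.1 taken here to count as pairing, though each liver correlated best with its own number. With the replicate block 217 genes were raised and 199 lowered, and 2 other zinc transporters were called, Slc39a5 being the added one. The block lowered the SE of Mt1 from 0.47 to 0.16 and that of Mt2 from 0.55 to 0.17, with unchanged log2 fold changes. In both genes replicate 2 was the highest liver of each group. Whether replicate numbers mark a shared factor was not tested. Depth limits low genes: 3 reads correspond to a signal of 0.331 to 0.447.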
